A study of Mus musculus with 8 samples.

Results

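Mouse embryonic stem cells (ESCs) were profiled by RNA-seq after depletion of ZZZ3 or YEATS2, and the 10 genes described here encode polypeptide N-acetylgalactosaminyltransferases (GALNTs): Galnt1, Galnt2, Galnt3, Galnt4, Galnt6, Galnt7, Galnt10, Galnt11, Galnt12 and Galnt14. They are 10 of the 19 GALNT family genes looked up and of the 55401 genes counted. Galnt6 was selected on its rise in both depletions against control, so its values are given as a description without a test, and the other 9 genes are the family against which it is set. ZZZ3 and YEATS2 are subunits of ATAC, a transcriptional coactivator complex with histone acetyltransferase activity. Of the 8 libraries, 2 were controls, 3 (labelled Zzz3 auxin, here Zzz3-AID) came from ESCs with ZZZ3 fused to an auxin-inducible degron (AID) and 3 (labelled Yeats2 auxin, here Yeats2-AID) from ESCs with YEATS2 fused to the same tag, and both AID groups were harvested after 24 h in 500 µM auxin. All cultures grew on gelatin in serum with leukaemia inhibitory factor and the inhibitors CHIR99021 and PD0325901, under G418 selection for Tir1, the plant F-box protein through which auxin triggers degradation of AID fusions. The study describes auxin against its solvent, dimethyl sulfoxide, within each tagged line, but the labels give neither the line nor the treatment of the controls that both AID groups share here. Depletion, auxin and cell line therefore cannot be told apart, and the labels do not say whether replicates were separate cultures, so that the spread between libraries may be technical.

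GALNT enzymes sit in the Golgi apparatus and start mucin-type O-glycosylation by moving N-acetylgalactosamine (GalNAc) from UDP-GalNAc to serine or threonine of a protein. Other enzymes then extend this first sugar to core structures and cap them with sialic acid. The family is large because its members differ in the peptides they accept: some act on bare peptide, while others, among them GALNT4, GALNT7 and GALNT10, prefer peptides that already carry GalNAc. GALNT6 and GALNT3 form a closely related pair within the family, and both can glycosylate fibronectin.

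Galnt6 (ENSMUSG00000037280) lies on the minus strand of chromosome 15 at 100691813 to 100729376 in GRCm38, the assembly also called mm10. RefSeq promoter windows of the same build were found for 6 of the 10 genes, and the 250 bases before the start site are shown for Galnt6, the gene that moved, and for Galnt3, its near relative that was hardly detected in these libraries. CpG dinucleotides are in capitals. The first Galnt6 window ends at the outer annotated start (chr15:100729377-100729626, minus strand), the second at a start site inside the gene (chr15:100720478-100720727, minus strand), and the Galnt3 window is at chr2:66124794-66125043, minus strand.
Galnt6, outer start: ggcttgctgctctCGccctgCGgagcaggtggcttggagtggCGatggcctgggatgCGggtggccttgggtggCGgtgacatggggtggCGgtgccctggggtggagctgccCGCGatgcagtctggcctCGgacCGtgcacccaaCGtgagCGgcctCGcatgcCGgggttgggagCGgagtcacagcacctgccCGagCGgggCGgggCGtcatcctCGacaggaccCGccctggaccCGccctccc
Galnt6, inner start: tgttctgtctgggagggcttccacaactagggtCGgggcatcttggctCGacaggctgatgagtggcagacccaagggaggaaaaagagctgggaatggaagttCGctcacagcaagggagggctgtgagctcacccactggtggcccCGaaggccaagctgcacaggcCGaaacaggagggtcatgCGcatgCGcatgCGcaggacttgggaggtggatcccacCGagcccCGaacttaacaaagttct
Galnt3: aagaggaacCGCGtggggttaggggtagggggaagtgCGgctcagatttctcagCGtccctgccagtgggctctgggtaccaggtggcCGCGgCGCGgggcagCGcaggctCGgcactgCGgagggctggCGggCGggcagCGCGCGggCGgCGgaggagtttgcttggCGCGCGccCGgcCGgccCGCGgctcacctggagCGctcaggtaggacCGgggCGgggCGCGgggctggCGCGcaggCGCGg

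The outer Galnt6 window held 22 CpG dinucleotides, more than 85.2% of the 32851 RefSeq windows of this length, and the inner one held 10, more than 62.2% of them. The Galnt3 window held 34, more than 96.5%. Searched on both strands, the GC box GGGCGG, which contains a CpG, was present 3 times in the outer Galnt6 window and 3 times in the Galnt3 window, but not in the inner Galnt6 window. It occurred in 32.7% of all windows. The letters of the TATA box (TATAAA, in 12.4% of windows), the CCAAT box (CCAAT, in 33.8%) and the E-box (CACGTG, in 6.02%) were in none of these 3 sequences. Counts per gene do not separate transcripts from the outer and inner start.

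The libraries held 14315120 to 27884704 reads assigned to genes. The 8 markers of naive pluripotent stem cells were above 1 CPM (counts scaled to library size) in every library, with a summed level of 4548 to 5341 CPM, while the 5 fibroblast or feeder cell markers summed to 1.23 to 2.11 CPM and the 5 endoderm markers to 0.9496 to 1.94 CPM. Within the naive list, Nanog was at 772 and 736 CPM in controls and lower in every auxin library, at 561 to 684. Pou5f1 was at 275 and 420 CPM in controls and higher in every auxin library, at 460 to 592. None of the remaining naive markers stood apart from the controls in both auxin groups. The 5 epithelial markers, some of which ESCs also express, summed to 444 to 477 CPM in controls, 410 to 784 in Zzz3-AID and 579 to 601 in Yeats2-AID. Most of this was Cdh1, and only Epcam was above both controls in every auxin library. Krt19 was above both in every Zzz3-AID library but overlapped them in Yeats2-AID. Sums of epiblast and neuroectoderm markers were higher in every auxin library than in both controls, but the single markers did not move together. Dnmt3b and Nes were above both controls in every auxin library. Otx2, of the epiblast list, was at 7.84 and 10.3 CPM in controls and 5.42 to 6.59 in Yeats2-AID. Sox1, of the neuroectoderm list, was at 5.77 and 4.49 CPM in controls and 2.03 to 2.90 in Yeats2-AID. In Zzz3-AID, Otx2 and Sox1 overlapped the controls. The 5 primed or formative epiblast markers summed to 174 to 192 CPM in controls, 197 to 218 in Zzz3-AID and 237 to 253 in Yeats2-AID, most of it Dnmt3b, which ESCs also express, with Fgf5 at 0 in both controls and at most 0.198 CPM elsewhere. The 3 neuroectoderm markers, mainly Nes, summed to 40.7 to 42.9, 48.4 to 71.6 and 44.8 to 50.2 CPM. The 4 trophoblast markers summed to 34.5 to 42.4 CPM with overlapping groups, and the 4 mesoderm markers to 15.0 to 17.8, 12.9 to 22.1 and 11.5 to 14.5 CPM, lower in Yeats2-AID than in both controls. The part of these markers in the rise of Galnt6 was not tested. Zzz3 mRNA was 186 and 182 CPM in controls and 77.5, 96.9 and 112 CPM in the Zzz3-AID libraries (log2 FC -0.95 ± 0.14, edgeR adjusted P = 0.0187). That call held in 11 of 17 alternatives, with adjusted P up to 0.293 without Control replicate 1, and was lost in compared groups alone and without either control, Zzz3-AID replicate 1 or Yeats2-AID replicate 1 or 3. Yeats2 mRNA was 90.9 and 95.8 CPM in controls and 77.3, 103 and 43.7 CPM in the Yeats2-AID libraries (log2 FC -0.32 ± 0.26, adjusted P = 0.605). The degron acts on protein, so these transcripts do not measure the depletion. Compared with the mean of all libraries, GC-rich genes stood lower than GC-poor genes by 0.59 on the log2 scale in Control replicate 1 and higher by 0.43 in Zzz3-AID replicate 3, against -0.08 to 0.15 in the other 6 libraries.

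Galnt6 transcripts were about 2.7 times as abundant in both depletions as in controls, the rise for which the gene was chosen. With libraries scaled by TMM, the trimmed mean of M values, Galnt6 was at 33.6 and 40.7 CPM in the controls, at 109, 99.9 and 95.3 CPM in Zzz3-AID, and at 90.2, 113 and 97.3 CPM in Yeats2-AID. The lowest auxin library was thus above the highest control, and the auxin groups overlapped each other. Group means were 37.2 ± 4.98 CPM (SD, n = 2), 101 ± 6.77 (SD, n = 3) and 100.2 ± 11.7 (SD, n = 3). These values rest on 682 and 897 reads in the controls and on 1424 to 3125 reads in the auxin libraries. The log2 FC was 1.45 ± 0.14 (standard error) in Zzz3-AID, a fold of 2.72, and 1.43 ± 0.14 in Yeats2-AID, a fold of 2.70. Among the 17532 genes that passed the filter on low counts, 331 had a larger log2 FC in Zzz3-AID and 221 in Yeats2-AID. Both values use the same 2 controls. Between the depletions Galnt6 differed by a log2 FC of -0.02 ± 0.12 (Yeats2-AID against Zzz3-AID). Galnt6 was chosen for rising in both, so likeness of the auxin groups is partly built in and no test is drawn. In bulk RNA, a higher level per cell and a larger share of cells with the transcript cannot be told apart.

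The longest transcript of Galnt6 is 55.2% G and C, above the upper quartile of all tested genes (53.9%). Its lower control value was in Control replicate 1, the library in which GC-rich genes stood low. With each library corrected for its trend on GC content and length, the log2 FC was 1.22 in Zzz3-AID and 1.27 in Yeats2-AID. With Control replicate 1 and Zzz3-AID replicate 3 both left out, it was 1.37 and 1.31. An antisense gene, Galnt6os, shares 441 bases (11.4%) of the Galnt6 exons on the opposite strand, and it had 0 or 1 read in each library.

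**Figure D1:**
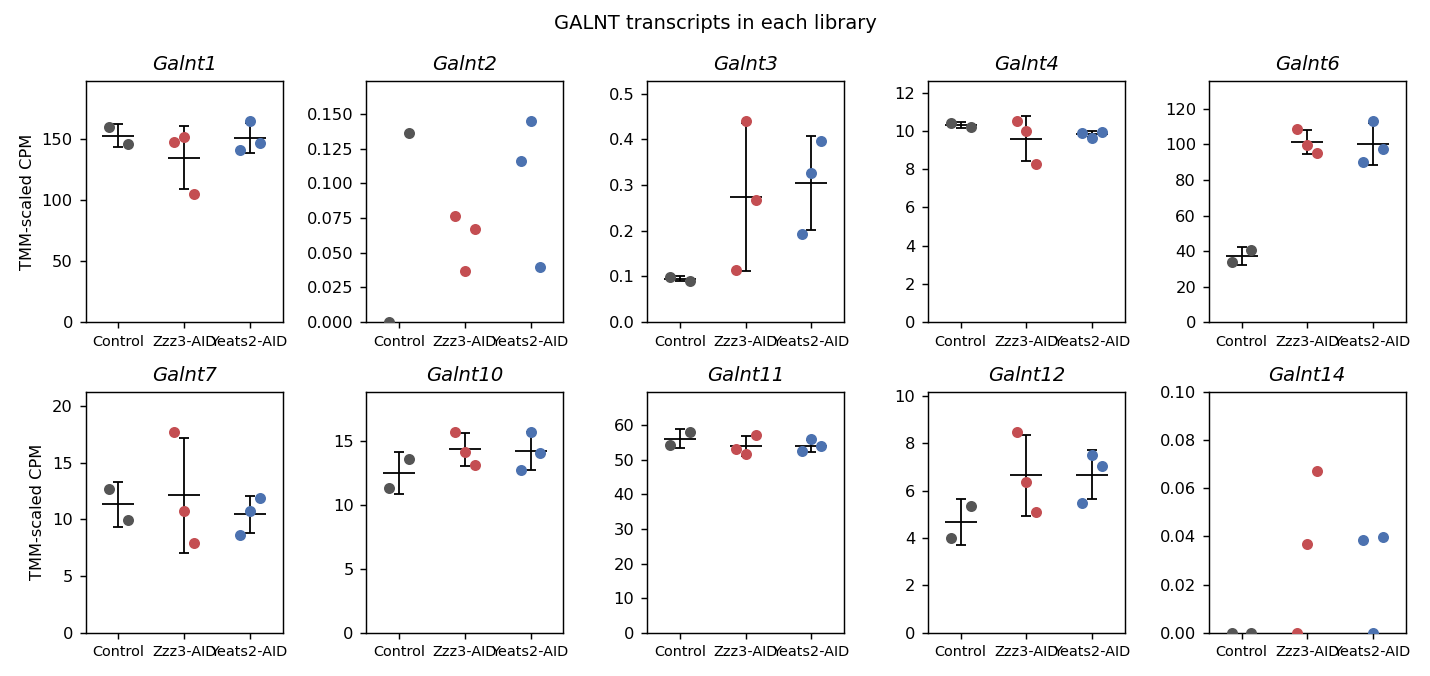
TMM-scaled CPM of each of the 10 GALNT genes by library (points), with the group mean ± SD as black bars for the 8 genes tested, on a linear axis of its own for each gene starting at 0. Galnt6 is the gene whose 6 auxin libraries (90.2 to 113 CPM) stand far above both controls (33.6 and 40.7 CPM), while Galnt2 and Galnt14 stay below 0.15 CPM.

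Of the other 9 genes, 7 passed the filter and were tested, and none was called at an adjusted P under 0.05 in edgeR's quasi-likelihood test in any comparison. Over all 17532 genes, 0.753% were called in Zzz3-AID against control, 0.445% in Yeats2-AID against control and 0% in Yeats2-AID against Zzz3-AID. DESeq2 gave no adjusted P for Galnt3 against control, and it called 0 of the 6 others there and 0 of the 7 between the depletions. Without adjustment, P was under 0.05 for 0 of the 7 in all 3 comparisons, where 21.7%, 14.6% and 6.25% of all genes passed. The libraries of Zzz3-AID and control did not overlap for 1 of the 7, Galnt3, and those of Yeats2-AID and control for 3, Galnt3, Galnt4 and Galnt12, against 35.8% and 40.3% of all genes. Between the depletions they overlapped for all 7, where 11.1% of all genes did not overlap. The median log2 FC of the 7 was 0.11 in Zzz3-AID and -0.02 in Yeats2-AID, and that of all genes was 0.0098 and -0.0081. Galnt3 passed the filter only through its auxin libraries, so its part in these counts and medians says nothing of a change.

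Galnt1 and Galnt11 encode initiating enzymes that had the highest levels per length beside Galnt6 among the members, leaving aside Galnt2, whose level could not be read from its count. Galnt1, a broadly expressed transferase, was at 159.8 and 146 CPM in the controls, 148, 152 and 105 CPM in Zzz3-AID, and 141, 165 and 147 CPM in Yeats2-AID. The 105 CPM was in Zzz3-AID replicate 3, the library in which GC-poor genes stood low. The other auxin libraries were at 141 to 165 CPM, on both sides of the controls. A part of GC content in the low value was not tested. The longest Galnt1 transcript is 44.5% G and C, just above the lower quartile of all tested genes (44.3%). Its log2 FC was -0.18 ± 0.16 in Zzz3-AID (adjusted P = 0.532) and -0.02 ± 0.16 in Yeats2-AID (adjusted P = 0.966). Galnt11, known for O-glycosylation of Notch and of the low-density lipoprotein receptor family, was at 54.2 and 58.1 CPM in the controls, 53.1, 51.8 and 57.2 CPM in Zzz3-AID, and 52.4, 55.9 and 54.0 CPM in Yeats2-AID. Its 3 groups overlapped, with a log2 FC of -0.06 ± 0.11 (adjusted P = 0.819) and -0.05 ± 0.11 (adjusted P = 0.861). The 95% interval of its fold to control was 0.810 to 1.14 in Zzz3-AID and 0.811 to 1.15 in Yeats2-AID, and that of Galnt1 was 0.697 to 1.12 and 0.778 to 1.25, so a rise of the size of Galnt6 lay outside all 4.

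Galnt4, Galnt7 and Galnt10, whose enzymes favour partly glycosylated substrates, were present at lower levels. Galnt4 was at 10.4 and 10.2 CPM in the controls, 10.51, 10.0 and 8.30 CPM in Zzz3-AID, and 9.90, 9.66 and 9.97 CPM in Yeats2-AID. The Yeats2-AID libraries were all below the controls, by a log2 FC of -0.07 ± 0.17 (adjusted P = 0.885), and the value in Zzz3-AID was -0.10 ± 0.17 (adjusted P = 0.776). Galnt4 shares 420 of its exon bases (8.25%) with Poc1b on the same strand, where the counting left reads unassigned. Galnt7 was at 12.7 and 9.93 CPM in the controls, 17.7, 10.8 and 7.90 CPM in Zzz3-AID, and 8.67, 10.8 and 11.9 CPM in Yeats2-AID. The Zzz3-AID libraries of Galnt7 spread on both sides of the controls, and its log2 FC was 0.11 ± 0.29 (adjusted P = 0.862) in Zzz3-AID and -0.12 ± 0.29 (adjusted P = 0.885) in Yeats2-AID. Galnt10 was at 11.3 and 13.7 CPM in the controls, 15.7, 14.2 and 13.2 CPM in Zzz3-AID, and 12.8, 15.7 and 14.1 CPM in Yeats2-AID. The lowest library of each auxin group was below the higher control, and the log2 FC was 0.20 ± 0.17 (adjusted P = 0.519) and 0.18 ± 0.17 (adjusted P = 0.648). The 95% intervals of its fold were 0.889 to 1.49 and 0.879 to 1.47. With the GC and length correction Galnt10 was at -0.12 and -0.031, so its sign depended on that choice, and its longest transcript is 57.0% G and C.

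Galnt12, a transferase highly expressed in the digestive tract, had the log2 FC nearest to that of Galnt6 among the 6 other members with a mean of at least 1 CPM. It was at 4.0 and 5.35 CPM in the controls, 8.48, 6.38 and 5.09 CPM in Zzz3-AID, and 5.49, 7.49 and 7.04 CPM in Yeats2-AID. The Yeats2-AID libraries were all above the controls, and 1 of the 3 Zzz3-AID libraries was below the higher control. The log2 FC was 0.52 ± 0.26 in Zzz3-AID (adjusted P = 0.271) and 0.51 ± 0.26 in Yeats2-AID (adjusted P = 0.376), so neither value passed the test, and the 95% intervals of the fold were 0.968 to 2.11 and 0.967 to 2.10. Its longest transcript is 54.9% G and C, and with the GC and length correction the values were 0.34 and 0.38.

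Galnt3 and Galnt14 were at the limit of detection. Galnt3, whose enzyme is known for protecting the hormone FGF23 from cleavage, had 2 and 2 reads in the controls, 3, 12 and 4 in Zzz3-AID, and 5, 9 and 10 in Yeats2-AID. All auxin libraries were above the controls at 0.115 to 0.440 CPM against 0.0907 and 0.0987 CPM, and the gene passed the filter only through its auxin libraries. Its fitted log2 FC was 1.498 ± 0.81 and 1.63 ± 0.79, a description from which no test is drawn, since the filter had already selected for high auxin libraries. Galnt14, whose enzyme modifies death receptors, had 0 reads in both controls and 0 or 1 read in each auxin library.

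Galnt2 had 0 and 3 reads in the controls, 2, 1 and 1 in Zzz3-AID, and 3, 4 and 1 in Yeats2-AID, although it encodes a widely expressed transferase. Of its 4282 exon bases, 3854 (90.0%) are also exon of Gm20388 on the same strand, a gene model that spans chr8:119910841-124345722 and had 0 reads in every library. The authors' counting left reads that fall on more than 1 gene unassigned, so a low Galnt2 count says nothing of the level of its transcript. Galnt2 and Galnt14 failed the filter and have no test.

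**Figure D2:**
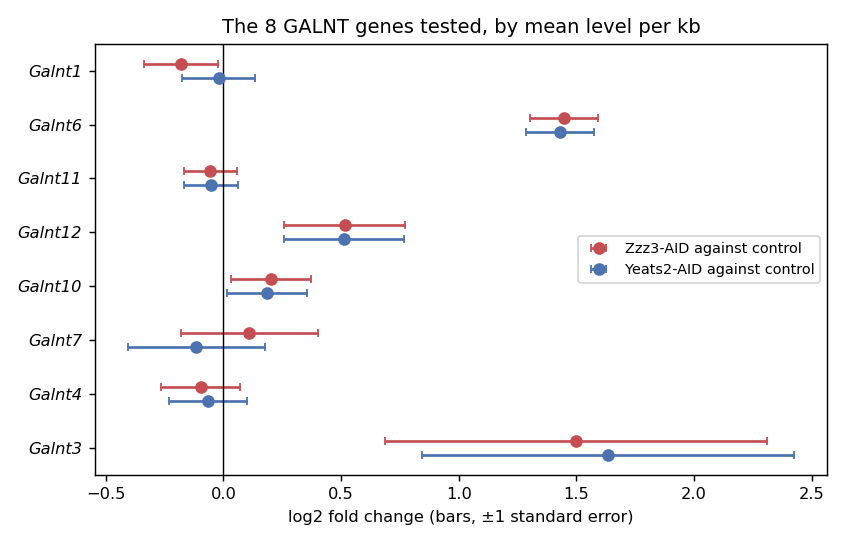
Log2 fold change of the 8 GALNT genes tested, with bars of ±1 standard error, in Zzz3-AID (red) and Yeats2-AID (blue) against the shared controls, ordered by mean level per kb of exon. Galnt6 sits at 1.45 and 1.43 and Galnt12 at 0.52 and 0.51, Galnt3 has wide bars, and the other 5 genes lie between -0.18 and 0.20.

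To compare levels between genes, CPM was divided by exon length. In controls Galnt1 led with 27.7 ± 1.72 CPM per kb (SD, n = 2), followed by Galnt6 with 9.60 ± 1.29 and Galnt11 with 8.19 ± 0.401, and the ranges of these neighbours did not overlap. Galnt7, Galnt10, Galnt12 and Galnt4 came next at 2.03 to 2.16 CPM per kb, and each overlapped the next in order. In Zzz3-AID Galnt6 stood at 26.2 ± 1.75 CPM per kb (SD, n = 3) and Galnt1 at 24.5 ± 4.67, and in Yeats2-AID Galnt1 stood at 27.3 ± 2.25 and Galnt6 at 25.9 ± 3.02. The libraries of Galnt6 and Galnt1 overlapped in both depletions, and those of the next gene, Galnt11, at 7.89 CPM per kb in both, did not reach them.

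Summed over the 10 genes, the level was 53.7 and 54.1 CPM per kb in the controls, 59.7 to 74.4 in Zzz3-AID and 64.7 to 77.2 in Yeats2-AID. Without Galnt6 the sum was 43.6 and 45.0 CPM per kb in the controls, 35.1 to 46.4 in Zzz3-AID and 41.4 to 48.0 in Yeats2-AID, so that the groups overlapped. Galnt6 made up 16.2% and 19.4% of the sum in the controls, 36.8% to 41.2% in Zzz3-AID and 36.0% to 37.8% in Yeats2-AID. The share of Galnt1 was 53.9% and 49.0% in the controls and 32.0% to 39.5% in the auxin libraries. Galnt2 entered these sums and shares only with the few reads assigned to it.

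**Figure D3:**
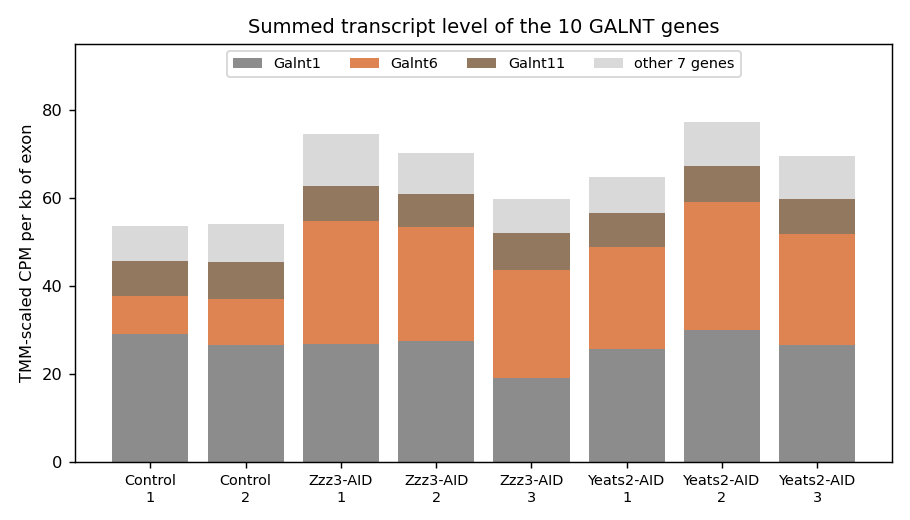
Summed level of the 10 GALNT genes in each library in TMM-scaled CPM per kb of exon, stacked into Galnt1, Galnt6, Galnt11 and the other 7 genes. The Galnt6 segment grows from 8.69 and 10.51 CPM per kb in the controls to 23.3 to 29.2 in the auxin libraries, and the sum without it spans 35.1 to 48.0 over all 8 libraries.

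Over the 8 libraries, the log2 CPM of Galnt6 had a Pearson r of 0.773 with Galnt12, 0.715 with Galnt10, 0.0073 with Galnt7, -0.19 with Galnt1, -0.34 with Galnt4 and -0.34 with Galnt11. All genes were read from the same libraries, each with its own depth and GC trend. Galnt6 was chosen for its step from control to auxin libraries, so an r with it partly restates that step. Galnt12, Galnt10 and Galnt6 are the members tested whose longest transcripts exceed 53.9% G and C. Of the 13908 other genes that averaged 1 CPM or more, 1038 had a higher r with Galnt6 than Galnt12 did. The 5 with the highest r were Fam78a (0.994), Mmrn2 (0.991), Slc4a8 (0.990), Ptprv (0.986) and Acad11 (0.984). These 5 were picked for following Galnt6, itself chosen for its rise, so higher levels in both depletions are built into the choice. Mean levels were 6.71, 13.5 and 12.8 CPM for Fam78a (Control, Zzz3-AID and Yeats2-AID). They were 58.3, 105 and 98.8 CPM for Mmrn2 and 19.8, 49.6 and 49.4 CPM for Ptprv. Acad11 was at 47.1, 74.97 and 78.1 CPM.

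One of these 5, Slc4a8, is also the nearest tested neighbour of Galnt6. It encodes a sodium-driven chloride and bicarbonate exchanger and lies on the plus strand at chr15:100761747-100823968, with its start 32.4 kb from that of Galnt6 and the genes pointing away from each other. Slc4a8 was at 8.34 and 9.98 CPM in the controls, 18.2, 18.5 and 17.3 CPM in Zzz3-AID, and 16.9, 18.7 and 15.9 CPM in Yeats2-AID, so that every auxin library was above both controls. It rose by a log2 FC of 0.97 ± 0.16 in Zzz3-AID (edgeR adjusted P = 0.0309) and 0.90 ± 0.16 in Yeats2-AID (adjusted P = 0.0408). The call held in 8 of 17 alternatives in Zzz3-AID and 9 of 17 in Yeats2-AID, with adjusted P from 2.2e-05 to 0.458 and from 0.00011 to 0.519, the highest without Control replicate 1, and the log2 FC was 0.85 to 1.11 and 0.78 to 1.04. The genes next to Galnt6 were looked at after its values were seen, and Slc4a8 is also among the 5 genes picked for following Galnt6. Its rise in both depletions is therefore built into that choice, and no conclusion is drawn from its adjusted P values.

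Within 250 kb of the Galnt6 start, 11 other genes were tested, and Slc4a8 was the 1 called in each depletion, where 0.753% and 0.445% of all genes were called. The call of Slc4a8 is given as a description, since its rise was built into the choice above. At an unadjusted P under 0.05, 4 of the 11 passed in Zzz3-AID and 2 in Yeats2-AID, against 21.7% and 14.6% of all genes. The remaining 10 had log2 FC values from -0.22 to 0.91 in Zzz3-AID and from -0.28 to 0.44 in Yeats2-AID, and the median of the 11 was 0.18 and 0.13. On the other side of Galnt6, Cela1, whose start lies at -41.5 kb, had a log2 FC of 0.18 ± 0.53 and -0.28 ± 0.54 at a mean level of 0.756 CPM. Bin2, at -59.8 kb, had 0.66 ± 0.23 (adjusted P = 0.133) and 0.35 ± 0.22 (adjusted P = 0.502). Scn8a, whose start lies beyond Slc4a8 at 140 kb from that of Galnt6, had -0.19 ± 0.21 (adjusted P = 0.635) and -0.24 ± 0.21 (adjusted P = 0.628).

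**Figure D4:**
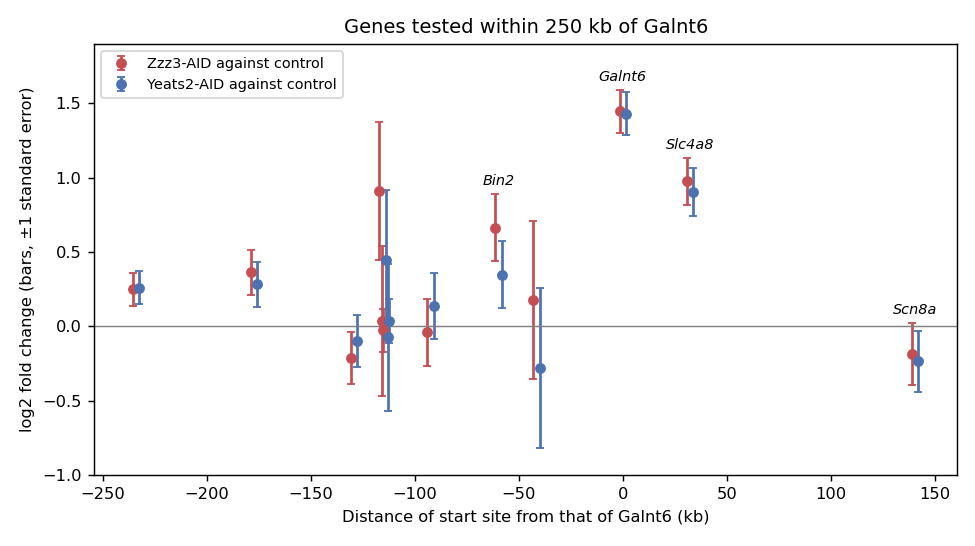
Log2 fold change (points) with bars of ±1 standard error for Galnt6 and the 11 genes tested within 250 kb, against the distance of their start site from that of Galnt6 in kb, for Zzz3-AID (red) and Yeats2-AID (blue). Galnt6 at 0 kb and Slc4a8 at 32.4 kb stand above the other neighbours, apart from a wide-barred transcript of 0.719 CPM at -116 kb that reached 0.91 in Zzz3-AID.

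The remaining 9 family genes were hardly detected. Galnt16, Galnt17 and Galnt18 passed the filter, Galnt17 and Galnt18 only through their auxin libraries. By edgeR 0 of the 3 were called in either depletion, where 0.753% and 0.445% of all genes were called. At an unadjusted P under 0.05 it was also 0 of the 3, against 21.7% and 14.6% of all genes. The part of Galnt17 and Galnt18 in these counts says nothing of a change. DESeq2 gave an adjusted P to 1 of the 3 and did not call it. Galnt18 stood at 0.138 CPM per kb in controls, 0.314 in Zzz3-AID and 0.198 in Yeats2-AID. Its fitted log2 FC was 1.25 ± 0.72 and 0.53 ± 0.74, a description from which no test is drawn. Galnt16 stood at 0.167, 0.223 and 0.180 CPM per kb, with a log2 FC of 0.42 ± 0.26 (adjusted P = 0.372) and 0.10 ± 0.26 (adjusted P = 0.883).

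Genes of the rest of the pathway and initiators of other kinds of O-glycan made up 5 lists with 60 genes in all. Of these, 44 were tested. All are called pathway genes here, although the initiators of other kinds of O-glycan lie outside the mucin-type pathway. By edgeR 0 of the 44 were called in either depletion, against the 0.753% and 0.445% of all genes given above. DESeq2, with an adjusted P for 42 of the 44 in Zzz3-AID and 41 in Yeats2-AID, called Xylt2, an initiator of proteoglycan chains, and Spn, the sialomucin CD43, in Zzz3-AID and C1galt1c1 in Yeats2-AID. The share of all genes that DESeq2 called is not given here, so these calls cannot be set against it. By edgeR, the log2 FC in Zzz3-AID was 0.67 ± 0.21 for Xylt2 (adjusted P = 0.118) and 1.01 ± 0.25 for Spn (adjusted P = 0.0762). At an unadjusted P under 0.05, 10 of the 44 (22.7%) passed in Zzz3-AID, 4 higher and 6 lower, and 5 (11.4%) in Yeats2-AID, 2 higher and 3 lower, near the 21.7% and 14.6% of all genes. The median log2 FC of the 44 was -0.14 in Zzz3-AID and -0.10 in Yeats2-AID.

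Core extension builds on the GalNAc that GALNTs add. Of the 8 genes in this list 6 were tested and 0 were called, with a median log2 FC of -0.27 in both depletions. Over all genes 0.753% and 0.445% were called, so a count of 0 in so short a list says little. C1galt1c1 encodes Cosmc, the chaperone that C1GALT1 needs to form core 1, and it stood at 9.26 CPM per kb in controls, 6.99 in Zzz3-AID and 6.11 in Yeats2-AID. Its log2 FC was -0.41 ± 0.16 (adjusted P = 0.182) and -0.60 ± 0.16 (adjusted P = 0.142). Gcnt1, the core 2 branching enzyme, stood at 11.2, 9.67 and 11.4 CPM per kb, with a log2 FC of -0.21 ± 0.15 (adjusted P = 0.446) and 0.016 ± 0.15 (adjusted P = 0.974). Sialic acid capping was represented by 7 tested genes of 9, with 0 called against the same shares and a median of -0.02 and -0.01. Its most abundant members, St3gal4 and St6galnac6, had log2 FC values of -0.11 ± 0.13 and 0.024 ± 0.15 in Zzz3-AID and of -0.01 ± 0.13 and -0.07 ± 0.15 in Yeats2-AID.

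All 11 genes for UDP-GalNAc supply and Golgi transport of nucleotide sugars were tested, and 0 were called, against 0.753% and 0.445% of all genes. Their median log2 FC was -0.17 in Zzz3-AID and -0.13 in Yeats2-AID. Slc35a1, the CMP-sialic acid transporter, stood at 23.0, 17.4 and 19.3 CPM per kb (Control, Zzz3-AID and Yeats2-AID), with a log2 FC of -0.40 ± 0.13 (adjusted P = 0.122) and -0.25 ± 0.13 (adjusted P = 0.401). Pgm3, an enzyme of UDP-GlcNAc synthesis, stood at 15.3, 13.1 and 14.8 CPM per kb, with -0.23 ± 0.12 (adjusted P = 0.291) and -0.048 ± 0.12 (adjusted P = 0.884). Initiators of other kinds of O-glycan were tested in 11 of 12 cases, with 0 called against the same shares and medians of -0.18 and -0.06. Ogt, which attaches single N-acetylglucosamine residues to nuclear and cytosolic proteins, stood at 72.8, 64.0 and 64.8 CPM per kb, with -0.19 ± 0.11 (adjusted P = 0.362) and -0.17 ± 0.11 (adjusted P = 0.514). Poglut1, which adds O-glucose to Notch, stood at 54.9, 46.6 and 50.7 CPM per kb, with -0.24 ± 0.12 (adjusted P = 0.277) and -0.11 ± 0.12 (adjusted P = 0.694).

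Mucins and other mucin-like proteins are the substrates of mucin-type O-glycosylation, and 9 of 20 genes were tested. Of these 0 were called, against 0.753% and 0.445% of all genes. Their median log2 FC was 0.12 in Zzz3-AID and -0.18 in Yeats2-AID. Lamp1, a lysosomal membrane glycoprotein, was the most abundant at 168, 171 and 167 CPM per kb, with a log2 FC of 0.03 ± 0.12 (adjusted P = 0.917) and -0.0057 ± 0.12 (adjusted P = 0.990). Cd164, the sialomucin endolyn, stood at 79.7, 57.6 and 60.1 CPM per kb, with -0.47 ± 0.17 (adjusted P = 0.157) and -0.41 ± 0.17 (adjusted P = 0.309). 

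**Figure D5:**
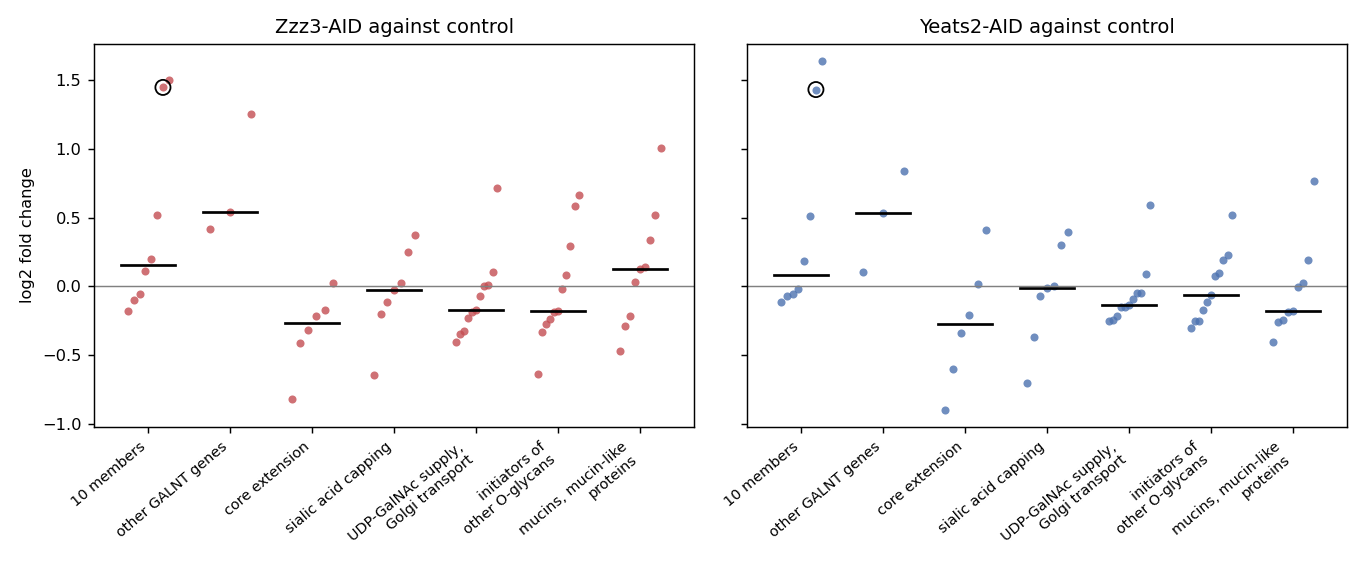
Log2 fold change of every tested gene (points) by list in Zzz3-AID (left) and Yeats2-AID (right) against control, with the list median as a black line and Galnt6 circled. The 44 pathway genes of the 5 right-hand lists lie between -0.82 and 1.01 in Zzz3-AID and between -0.89 and 0.77 in Yeats2-AID, below the 1.45 and 1.43 of Galnt6.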

How the data were processed

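The deposited values were raw counts of reads per gene, 1 file per library. Before deposit, the authors cleaned reads (cutadapt, removal of ribosomal RNA), mapped them to mm10 (STAR 2.5.3a) and counted with HTSeq 0.6.1p1 in union mode, leaving ambiguous reads unassigned. The strand option is not given in the sources used here. The labels name poly(A) RNA, while the protocol describes ribosomal depletion. The 5 tallies of unassigned reads per file were left out. GENCODE (GRCm38) gave names and exons for 55141 of 55401 identifiers, and promoter windows came from RefSeq GRCm38.p6.

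Counts were fitted in R 4.3.3 with edgeR 4.0.16: filterByExpr (17532 genes kept), TMM scaling and the robust quasi-likelihood test on all 8 libraries, two-sided, adjusted by Benjamini and Hochberg over all genes and called under 0.05. The test was checked on simulated counts with 200 genes changed by large folds. Recovery was required only of genes of at least 1 CPM. The check therefore says nothing of how often smaller changes, or changes in weaker genes, would be called. DESeq2 1.42.0 was an alternative. Log2 CPM used a prior count of 2. Tables and plots were made in Python 3.11.15.

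The members, lists and tests were chosen with earlier results of these data known. All 10 members are named, of each pathway list the called genes or else the 2 of highest level per length, and the 5 genes of highest r with Galnt6. Beside the genes this rule leaves unnamed, 1 pathway gene is not reported here.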

Additional observations from a re-analysis of the deposited data

How the results depend on the processing

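All values here are log2 FC or counts of calls, under 17 alternatives, except that Galnt3 passed the filter in 13 of them, which lack compared groups alone, a mean of at least 1 CPM, Zzz3-AID replicate 2 left out and Yeats2-AID replicate 3 left out. Galnt18 likewise has no value at a mean of at least 1 CPM, nor in Yeats2-AID with compared groups alone. The rise of Galnt6 kept its sign in all of them, from 1.22 to 1.59 in Zzz3-AID and from 1.27 to 1.58 in Yeats2-AID. Leaving out 1 library at a time gave 1.31 to 1.59 and 1.30 to 1.58, both ends from the 2 controls. The GC and length correction moved Galnt6 in Zzz3-AID by more than the replicate SD, to 1.22, and to 1.27 with the replicate block. Leaving aside Galnt6, which has no test, 0 members were called in any comparison by any alternative that gave an adjusted P. Pathway genes called rose from 0 to 2 with DESeq2 and to 5 without a filter in Zzz3-AID and to 1 with DESeq2 in Yeats2-AID, and were 0 to 1 in Zzz3-AID with 1 library left out (Xylt2, without Zzz3-AID replicate 2). The shares of all genes called under these alternatives are not given here, so the counts cannot be set against them. The cause of these shifts was not tested.

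The replicate numbers showed no clear pairing. Same-numbered libraries had correlations of -0.172 to 0.196 in their deviations from group means, and differently numbered ones -0.214 to 0.214. The 2 controls deviate as mirror images, so their values can hardly show pairing. Between Zzz3-AID and Yeats2-AID, same-numbered libraries were at -0.0334 to 0.0486 and differently numbered ones at -0.0743 to 0.029. A fit with the replicate block called 0 members beside Galnt6, which has no test, and left Galnt6 at 1.48 and 1.46. It lost the call of Slc4a8, with adjusted P = 0.0508 and 0.0714.

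Small differences changed sign. In Zzz3-AID against control, the GC and length correction gave -0.12 for Galnt10, -0.35 for St6galnac6 and -0.049 for Lamp1, and with the replicate block added -0.061, -0.33 and -0.094, and 0.015 for Galnt4. In Yeats2-AID it gave 0.076 for Galnt1, 0.0033 for Galnt4, 0.033 for Galnt7, -0.031 for Galnt10, -0.062 for Galnt16 and 0.028 for Pgm3, and with the block 0.16 for Galnt1, 0.041 for Galnt4, 0.13 for Galnt7, -0.030 for Galnt16 and 0.016 for Pgm3. Between the depletions it gave 0.084 for Galnt10 and 0.040 for Galnt12, and with the block 0.096 and 0.066. The replicate block alone gave 0.072 for Galnt1 and 0.018 for St3gal4 in Yeats2-AID, -0.0048 for St6galnac6 and -0.022 for Lamp1 in Zzz3-AID, and 0.0037 for Galnt12 between the depletions. Without Control replicate 1 and Zzz3-AID replicate 3 together, Galnt1 was at 0.042, Galnt4 at 0.016, St6galnac6 at -0.063 and Lamp1 at -0.15 in Zzz3-AID, Galnt1 at 0.058, Galnt7 at 0.087 and St3gal4 at 0.028 in Yeats2-AID, and Galnt4 at -0.054 between the depletions. Without a filter the values were 0.0022 for Galnt1, 0.013 for St3gal4 and 0.017 for Lamp1 in Yeats2-AID and 0.0074 for Galnt12 between the depletions. A mean of at least 1 CPM gave 0.0033 for Lamp1 in Yeats2-AID and -0.0014 for Galnt11 between the depletions, compared groups alone gave 0.0057 for St3gal4 and 0.0094 for Lamp1 in Yeats2-AID, and DESeq2 gave 0.0017 for Galnt12 between the depletions.

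With 1 library left out, the ranges that crossed 0 were -0.15 to 0.0063 for Galnt4, -0.25 to 0.34 for Galnt7, -0.073 to 0.11 for St6galnac6 and -0.079 to 0.15 for Lamp1 in Zzz3-AID. In Yeats2-AID they were -0.089 to 0.044 for Galnt1, -0.28 to 0.073 for Galnt7, -0.10 to 0.0011 for Galnt11, -0.090 to 0.78 for Galnt18, -0.058 to 0.097 for Gcnt1, -0.067 to 0.030 for St3gal4, -0.14 to 0.049 for Pgm3 and -0.11 to 0.11 for Lamp1. Between the depletions they were -0.28 to 0.37 for Galnt3, -0.058 to 0.096 for Galnt4, -0.44 to 0.15 for Galnt7, -0.098 to 0.054 for Galnt10, -0.032 to 0.046 for Galnt11 and -0.15 to 0.21 for Galnt12. A library left out of a group of 2 left 1 control, which was assumed to vary like the other groups. Depth limits Galnt3, Galnt14 and most of the remaining family, and shared exons limit Galnt2.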
